A study of Arabidopsis thaliana with 4 samples.

Results

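The genes described here were 4 regulators of greening (GLK1, GLK2, GNC and CGA1) and 6 genes of chlorophyll synthesis (HEMA1, CHLH, GUN4, PORA, PORB and PORC). They were chosen by name from what is known of the pathway, with earlier results of these data also known. They were found by their loci, 10 of the 33565 genes in the expression table. The libraries came from roots of 7-day-old wild-type Arabidopsis seedlings (Col-0) grown on medium without hormone (control), with 10 µM methyl jasmonate (JA), with 50 nM of the synthetic cytokinin BAP (cytokinin), or with both hormones together (JA/cytokinin). Each condition had 1 library, so differences could not be checked against replicates and p-values were not computed. Expression was given as FPKM, the fragments assigned to a gene scaled for transcript length and for library depth.

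Plants make chlorophyll in the plastid from glutamate, through 5-aminolevulinic acid (ALA) and a set of steps shared with heme, before magnesium is inserted and the chlorophyll branch begins. The GLK proteins are transcription factors that switch on nuclear genes for chlorophyll synthesis and the light-harvesting antenna. GNC and CGA1 are a related pair of GATA factors that also promote greening and are known as cytokinin-responsive genes in seedlings. Wild-type Arabidopsis roots are mostly pale, and cytokinin is known to favour greening in roots while auxin holds it back.

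The libraries were sequenced to between 98605532 reads (cytokinin) and 115141812 reads (JA/cytokinin), and an estimated 85.5% to 89.7% of the read pairs were mapped fragments. At that depth 3 fragments on 1 kb of transcript corresponded to 0.061 to 0.0682 FPKM. The hormone labels were checked with response genes. JAZ10, a JA-induced repressor of JA signalling, was at 2.59 FPKM in control, 449.1 in JA, 6.85 in cytokinin and 259.6 in JA/cytokinin. ARR7, an early cytokinin response gene, was at 14.2, 2.15, 20.7 and 35.0 FPKM in the same order. The other response genes were JAZ1 and JAZ5 for JA and ARR5 and ARR6 for cytokinin. In JA against control, JAZ1 and JAZ5 were at log2 ratios of 3.21 and 5.27. In cytokinin against control, ARR5, ARR6 and ARR7 were at 0.84, 0.49 and 0.55, each less than 2-fold. The JA genes JAZ5 and JAZ10 were at 1.00 and 1.41 in that comparison. Between JA/cytokinin and JA, JAZ1 was at -0.54 and ARR5 at 2.01. For the library with cytokinin alone, the label check was therefore weaker than for JA.

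The tissue label was checked with 11 root and 14 shoot markers. None of the root markers was at 0 in any library, and their summed level was 549.4 FPKM in control, 324.7 in JA, 596.9 in cytokinin and 342.5 in JA/cytokinin. Between cytokinin and control the root markers ran from a log2 ratio of -0.16 for CASP1, of the Casparian strip, and -0.14 for SHR to 0.52 for EXPA7 and 0.60 for COBL9, both of root hairs. Between JA/cytokinin and JA they ran from -0.38 for EXPA7 and -0.22 for SCR to 0.56 for WER and 0.61 for SMB. Against control, 3 of the 11 root markers were at least 2-fold lower in JA, beside 11.3% of all genes. These were CASP1 (log2 -1.89), GL2 (-1.10) and COBL9 (-1.04). In JA/cytokinin CASP1 alone was 2-fold lower (-1.535), beside 11.6% of all genes. No root marker was 2-fold higher in either library. The shoot markers were all above 0 in control, with a sum of 17.9 FPKM, against 0.772 in JA, 0.931 in cytokinin and 2.19 in JA/cytokinin. Of these 14 genes, 9 were listed at 0 in JA, 8 in cytokinin and 7 in JA/cytokinin. Their median in control was 0.589 FPKM. Of all 33565 genes, 22291 were above 0 in each of the 4 libraries. The share listed at 0 among genes of a like control level was not computed. The 4 YABBY genes among them, transcription factors of leaves and other lateral shoot organs, summed to 8.05 FPKM in control and to 0.057, 0.0217 and 0.0717 FPKM in the 3 treated libraries, which is 0.707%, 0.27% and 0.89% of control. This subset was picked out after its values were seen. Most of the rest of the list was also lower. SPCH, MUTE, FAMA, TMM, EPF1, EPF2 and EPFL9 were below control in each treated library. EPFL9, the highest of the list in control, was at 5.54 FPKM there, 0.141 in JA and listed at 0 in cytokinin and JA/cytokinin. MUTE and FAMA were listed at 0 in all treated libraries. BASL and WUS were above control in JA/cytokinin, and STM was near its control level in cytokinin. BASL, a polarity gene of the stomatal lineage, was at 0.251 FPKM in control, 0.24 in JA, 0.0228 in cytokinin and 1.29 in JA/cytokinin. WUS, of the shoot meristem, was at 0.0413 FPKM in control, listed at 0 in JA, and at 0.493 in cytokinin and 0.26 in JA/cytokinin. STM, another meristem gene, was at 0.11 FPKM in control and 0.0915 in cytokinin and listed at 0 in JA and JA/cytokinin. For scale, 3 fragments on 1 kb corresponded to 0.0682 FPKM in control and 0.0678 in cytokinin. WUS in control and BASL in cytokinin were below these levels. No counting interval was computed for single shoot markers, so the directions of the lowest ones are uncertain. The whole shoot list summed to 4.31% of control in JA, 5.19% in cytokinin and 12.2% in JA/cytokinin. WUS was the largest part of the sum in cytokinin and BASL the largest in JA/cytokinin. In bulk RNA, fewer cells of a type and less RNA per cell cannot be told apart. Likewise, shoot material in the 1 control library and a difference within root cells cannot be told apart here. All ratios to control share that library. The share of the differences below that goes with the shoot markers was not tested.

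Every member except PORA was at its highest or near its highest level in control roots. Summed over the 10 genes, the level was 101.9 FPKM in control, 28.4 in JA, 38.0 in cytokinin and 23.8 in JA/cytokinin. Of the 8 members above 0 in all libraries, 7 were at least 2-fold lower in JA than in control and none was 2-fold higher, whereas 11.3% of all 22291 genes above 0 in every library were 2-fold lower and 9.32% were 2-fold higher. In cytokinin 5 of the 8 were 2-fold lower and none higher, beside 9.77% and 5.19% of all genes. In JA/cytokinin 7 of the 8 were 2-fold lower and none higher, beside 11.6% and 11.4% of all genes. The median log2 ratio over the 8 members was -2.11 in JA, -1.79 in cytokinin and -3.24 in JA/cytokinin, against medians over all genes of -0.02, 0.05 and 0.04. These comparisons share the control library.

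**Figure D1:**
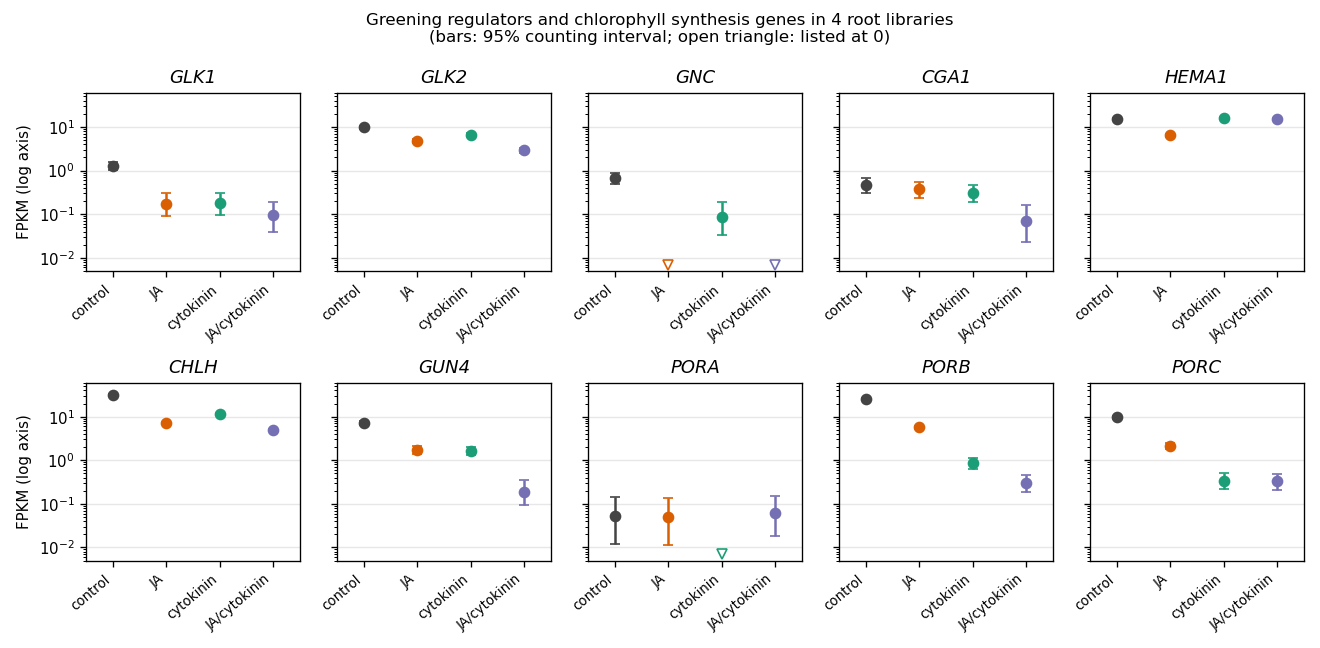
FPKM of each of the 10 genes in the 4 root libraries on a log axis, with bars for the 95% counting interval and open triangles for genes listed at 0. CHLH and PORB started highest in control, at 32.2 and 25.1 FPKM, and HEMA1 alone stayed near 15 FPKM in control, cytokinin and JA/cytokinin.

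Among the regulators, GLK2 was the most strongly expressed. GLK2 (AT5G44190, chr5:17798262-17800926, plus strand, TAIR10.1) was at 9.82 FPKM in control, 4.69 in JA, 6.64 in cytokinin and 2.93 in JA/cytokinin. It was thus 2.09-fold lower in JA, 1.48-fold lower in cytokinin and 3.35-fold lower with both. The log2 ratios were -1.07 in JA (95% counting interval -1.26 to -0.87), -0.57 in cytokinin (-0.74 to -0.39) and -1.75 in JA/cytokinin (-1.98 to -1.52). The JA difference was of like size without and with cytokinin, at -1.07 and -1.18, so the 2 hormones together were close to the sum of each alone on the log2 scale, with a departure of -0.12.

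GLK1 was less abundant per length than GLK2 in every library and was lower in all treated libraries. GLK1 (AT2G20570, chr2:8855302-8857758, plus strand), the close relative of GLK2, was at 1.27 FPKM in control, 0.173 in JA, 0.18 in cytokinin and 0.0951 in JA/cytokinin, from an estimated 84.8, 12.2, 12.1 and 7.12 fragments. It was 7.33-fold lower in JA and 7.02-fold lower in cytokinin, and 13.3-fold lower with both. The 3 treated levels are not separable by counting alone, since the log2 ratio of JA/cytokinin to JA was -0.86 with an interval of -2.43 to 0.59. The coding sequences of GLK1 and GLK2 were 56.6% identical and no run as long as a read was shared by their transcripts.

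Both GATA factors were at low levels, from an estimated 49 (GNC) and 30 (CGA1) fragments in control. Close to the limit were GNC in the treated libraries and CGA1 in JA/cytokinin. GNC (AT5G56860, chr5:22989216-22991530, minus strand), a nitrate-inducible regulator of chlorophyll content, was at 0.683 FPKM in control and 0.0869 in cytokinin and was listed at 0 in JA and JA/cytokinin. The cytokinin value was 7.86-fold below control and rested on an estimated 6.27 fragments. No ratio is given for the libraries at 0, where the counting interval reaches up to 0.0488 FPKM in JA and 0.046 in JA/cytokinin. CGA1 (AT4G26150, chr4:13253084-13255106, plus strand), its paralogue, was at 0.464 FPKM in control, 0.369 in JA, 0.308 in cytokinin and 0.0696 in JA/cytokinin. With either hormone alone the counting interval of its ratio included 0 (log2 -0.33, -1.16 to 0.48 in JA, and -0.59, -1.48 to 0.27 in cytokinin), while with both it was 6.66-fold lower (log2 -2.74, -4.45 to -1.36) from 5.04 fragments.

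None of the 5 other GATA factors of the same family was 2-fold lower or higher in cytokinin than in control, beside 9.77% and 5.19% of all genes. The log2 ratios of GATA15, GATA16, GATA17, GATA17L and GATA23 ran from 0.13 (GATA17L) to 0.81 (GATA16). GATA16 was at 11.9 FPKM in control, 5.62 in JA, 20.9 in cytokinin and 13.4 in JA/cytokinin. GATA23, which is known from lateral root founder cells, was at 2.53, 1.81, 4.13 and 5.95 FPKM and was 2-fold higher in JA/cytokinin than in control.

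HEMA1 stood apart from the other synthesis genes. HEMA1 (AT1G58290, chr1:21623700-21626402, minus strand) encodes the main glutamyl-tRNA reductase, the controlled first step of ALA formation, and was at 15.6 FPKM in control, 6.4 in JA, 16.2 in cytokinin and 14.9 in JA/cytokinin. It was 2.43-fold lower in JA (log2 -1.28, -1.42 to -1.15), and cytokinin alone left it at a log2 ratio of 0.05 (-0.05 to 0.16). The JA difference in log2 level was -1.28 without cytokinin and -0.11 with it. HEMA1 was the 1 member that was 2-fold higher in JA/cytokinin than in JA, by 2.34-fold (log2 1.22, 1.09 to 1.36), whereas 8.48% of all genes were 2-fold higher and 9.1% were 2-fold lower in that comparison.

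CHLH and GUN4 act together at the insertion of magnesium, the entry to the chlorophyll branch. CHLH (AT5G13630, chr5:4387307-4392429, minus strand), the subunit of magnesium chelatase that binds the porphyrin, was at 32.2 FPKM in control, 7.19 in JA, 11.8 in cytokinin and 4.85 in JA/cytokinin. It was 4.47-fold lower in JA, 2.73-fold lower in cytokinin and 6.63-fold lower with both. It had the most fragments of the members, an estimated 6500 in control and 1100 in JA/cytokinin, and the narrowest intervals, with a log2 ratio of -2.73 (-2.82 to -2.64) in JA/cytokinin.

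GUN4 differed most where both hormones were present. GUN4 (AT3G59400, chr3:21948501-21949796, minus strand), which binds the porphyrin and stimulates the chelatase, was at 7.17 FPKM in control, 1.70 in JA, 1.64 in cytokinin and 0.191 in JA/cytokinin. JA and cytokinin alone gave nearly equal values, 4.23-fold and 4.37-fold lower than control. With both it was 37.6-fold lower (log2 -5.23, -6.27 to -4.36), from an estimated 10.7 fragments, and 8.88-fold lower than in JA. The gene shares 946 bases with AT3G59410 on the other strand, which was at 6.59, 8.97, 7.68 and 7.68 FPKM, and whether counting used strand is not given in the sources used here.

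The last group reduces protochlorophyllide in light, and held the lowest cytokinin ratios of the members. PORB (AT4G27440, chr4:13725546-13727440, plus strand), an isoform active in seedlings and mature tissue, was at 25.1 FPKM in control, 5.67 in JA, 0.852 in cytokinin and 0.3 in JA/cytokinin. It was 4.43-fold lower in JA, 29.4-fold lower in cytokinin (log2 -4.88, -5.29 to -4.49) and 83.7-fold lower with both (log2 -6.39, -7.07 to -5.78). Only 0.745% of all genes had a lower ratio of cytokinin to control than PORB.

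PORC was at nearly the same low level in both libraries with cytokinin. PORC (AT1G03630, chr1:907523-909650, plus strand), the isoform favoured in light, was at 9.67 FPKM in control, 2.12 in JA, 0.339 in cytokinin and 0.326 in JA/cytokinin. It was 4.56-fold lower in JA, 28.5-fold lower in cytokinin and 29.6-fold lower with both. JA/cytokinin and cytokinin did not differ beyond counting (log2 -0.05, -0.91 to 0.80), whereas PORB was 2.84-fold lower in JA/cytokinin than in cytokinin (log2 -1.51, -2.29 to -0.77). PORC overlaps AT1G03620 on the other strand by 121 bases and PORB overlaps AT4G27450 by 71 bases.

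PORA (AT5G54190, chr5:21990864-21992814, minus strand), the isoform of dark-grown seedlings, was near the floor in all libraries. It was at 0.0517 FPKM in control, 0.0494 in JA and 0.0621 in JA/cytokinin, from an estimated 3.3, 3.32 and 4.43 fragments, and listed at 0 in cytokinin. No ratio is drawn from these values. PORA and PORB had coding sequences 82.5% identical with a longest shared run of 48 bases, and no run as long as a read was shared between any of the 3 POR transcripts.

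**Figure D2:**
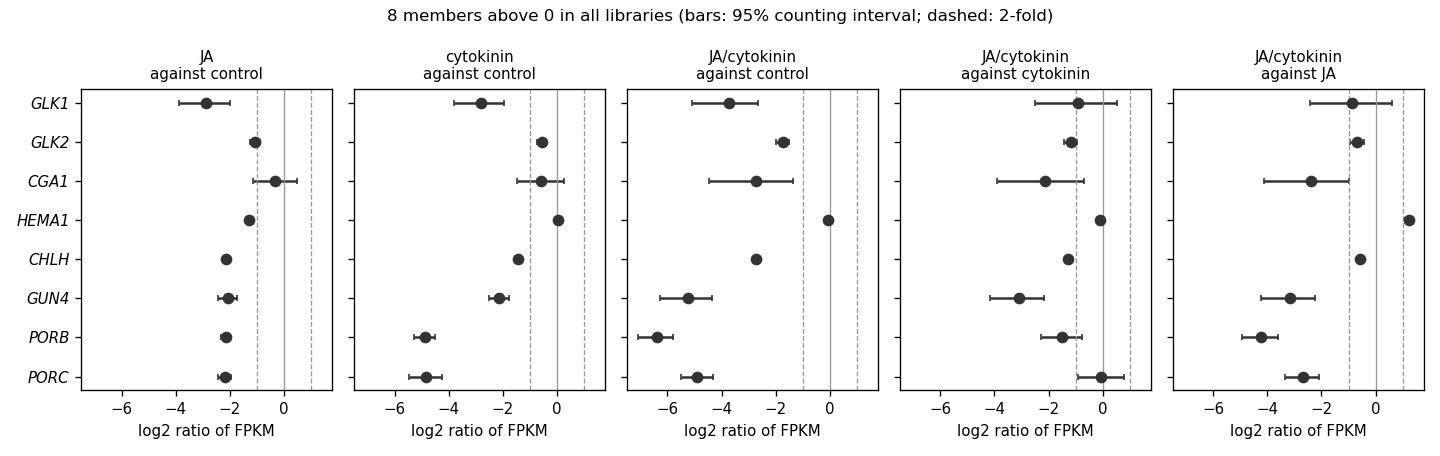
Log2 ratio of FPKM for the 8 members above 0 in all libraries, in 5 comparisons, with bars for the 95% counting interval and dashed lines at 2-fold. PORB and PORC lie at -4.88 and -4.83 in cytokinin against control, and HEMA1 lies at 1.22 in JA/cytokinin against JA.

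The comparisons within a hormone background gave each hormone's difference in the presence of the other. Against cytokinin alone, 5 of the 8 members (GLK2, CGA1, CHLH, GUN4 and PORB) were 2-fold lower in JA/cytokinin and none higher, beside 7.8% and 10.2% of all genes, with a median log2 ratio of -1.23. With 1 FPKM added to both libraries 2 members (CHLH and GUN4) remained past 2-fold, with GLK2 at -0.96, PORB at -0.51 and CGA1 at -0.29 and a median of -0.40, and at a 3-fold threshold 2 members (CGA1 and GUN4) passed. Against JA alone, 4 of the 8 members (CGA1, GUN4, PORB and PORC) were 2-fold lower and 1 higher (HEMA1), beside 9.1% and 8.48% of all genes, with a median of -1.63. The cytokinin difference was -4.88 without and -4.24 with JA for PORB, and -4.83 and -2.70 for PORC. The log2 differences departed from a sum in both directions: with both hormones GLK1 and PORC were above the sum of the 2 single differences by 1.95 and 2.13, and CGA1 and GUN4 departed from it by -1.82 and -1.02. These departures have no counting interval and no replicate check. The JA/cytokinin values behind them rest on an estimated 7.12 (GLK1), 26.1 (PORC), 5.04 (CGA1) and 10.7 (GUN4) fragments. Whether the members differ in their pattern of combination was not tested.

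The members were next set beside the rest of the tetrapyrrole pathway, from lists of known genes. Of 14 genes of ALA formation and the common steps, 2 were 2-fold lower in JA, none in cytokinin and 2 in JA/cytokinin, beside 11.3%, 9.77% and 11.6% of all genes. Their summed level was 298.6 FPKM in control, 270.6 in JA, 239.3 in cytokinin and 218.8 in JA/cytokinin. HEMA2, the second reductase isoform, was at a log2 ratio of -0.22 in JA/cytokinin against control. HEME2, a uroporphyrinogen decarboxylase, had the lowest ratio to control among them in cytokinin (log2 -0.95), followed by HEME1, its second gene (-0.64). HEMB2, the low-level second gene for ALA dehydratase, was the 1 gene that was 2-fold higher in cytokinin, and was at 1.501 FPKM in control, 0.0199 in JA, 3.68 in cytokinin and 1.01 in JA/cytokinin. PPOX2 was at a log2 ratio of 0.14 in cytokinin, and between JA/cytokinin and JA the values were -0.52 for HEMC and 0.21 for HEMF2.

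In the chlorophyll branch most genes were lower. Of 10 further chlorophyll-branch genes, 5 were 2-fold lower in JA, 8 in cytokinin and all 10 in JA/cytokinin, beside 11.3%, 9.77% and 11.6% of all genes, and none was 2-fold higher. Their summed FPKM was 319.5 in control, 131.7 in JA, 88.4 in cytokinin and 62.4 in JA/cytokinin. CRD1, a subunit of the cyclase that forms the fifth ring, was at 104.6 FPKM in control, 21.5 in JA, 12.5 in cytokinin and 4.36 in JA/cytokinin. CHLP, which makes the phytol tail, was at 66.7 FPKM in control, 19.0 in JA, 19.8 in cytokinin and 6.03 in JA/cytokinin. CHLI2, a minor chelatase subunit, was at 4.11 FPKM in control and 0.453 in JA/cytokinin. CHLG, chlorophyll synthase, was at 16.1 FPKM in control and 7.46 in JA/cytokinin. CHLD, another chelatase subunit, was at a log2 ratio of -0.88 in cytokinin against control, and DVR, a vinyl reductase, was at 0.38 in JA/cytokinin against JA.

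**Figure D3:**
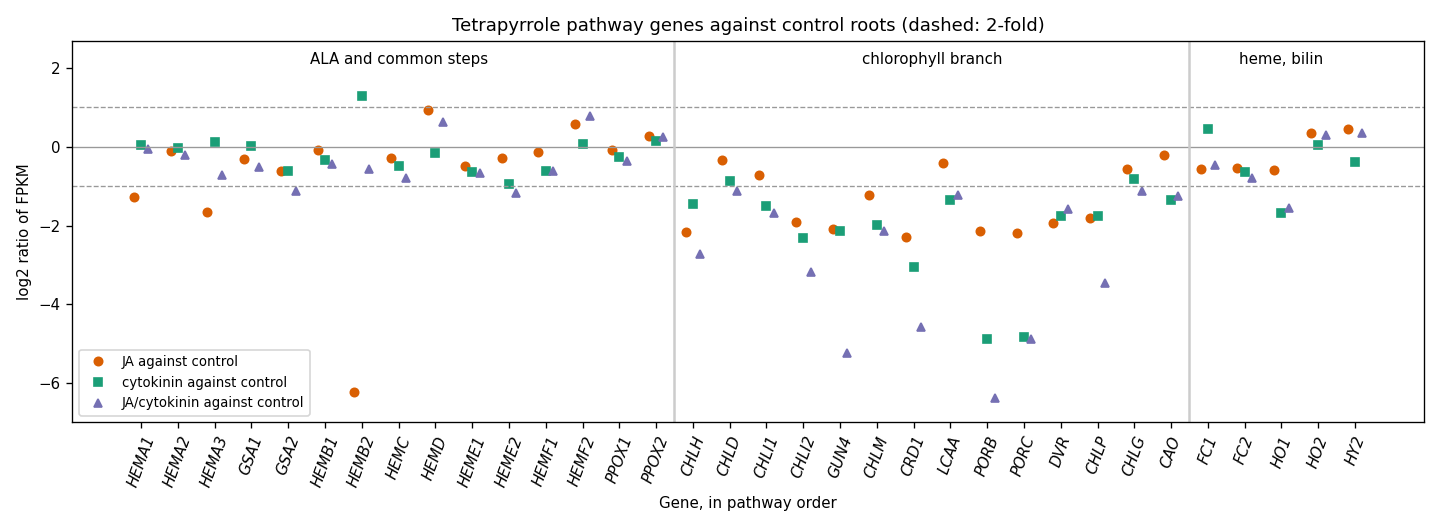
Log2 ratio of FPKM against control for genes of the tetrapyrrole pathway in pathway order, with circles for JA, squares for cytokinin and triangles for JA/cytokinin; genes with a library at 0 are left out. Most points before CHLH lie between the dashed 2-fold lines, while from CHLH to CAO all points lie below 0, down to -6.39 for PORB in JA/cytokinin.

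The heme and bilin branch was mostly within 2-fold. Of its 7 genes 5 were above 0 in all libraries. HO1 was the 1 gene that was 2-fold lower than control, in cytokinin and JA/cytokinin, beside 9.77% and 11.6% of all genes. HO1, the main heme oxygenase that opens heme for the light receptor chromophore, was at 74.4 FPKM in control, 49.2 in JA, 23.2 in cytokinin and 25.4 in JA/cytokinin. FC1, a ferrochelatase, was at 59.3, 39.8, 81.4 and 43.2 FPKM in the same order. FC2, the second ferrochelatase, and HO2 were at log2 ratios of -0.65 and 0.04 in cytokinin against control. The 3 post-transcriptional or retrograde regulators FLU, GLUTRBP and GUN1 stayed within 2-fold in all 5 comparisons.

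The antenna genes, known targets of the GLK factors, were far lower in the treated libraries. All 14 nuclear antenna genes were 2-fold lower in JA, cytokinin and JA/cytokinin than in control, beside 11.3%, 9.77% and 11.6% of all genes. Their summed FPKM was 4273 in control, 657.4 in JA, 75.8 in cytokinin and 58.0 in JA/cytokinin, which is 15.4%, 1.77% and 1.36% of control. LHCA4 was at 418.2 FPKM in control and 16.6 in cytokinin, and LHCB6 was at 165.6 and 11.9. Near-identical LHCB1 and LHCB2 copies may share reads, so their separate values are uncertain. LHCB1.1 and LHCB2.2 had the lowest ratios, at log2 -11.72 and -10.93 in cytokinin against control. Their cytokinin values were 0.108 and 0.0489 FPKM, where 3 fragments on 1 kb corresponded to 0.0678 FPKM. The size of these 2 ratios is therefore uncertain. LHCB3 was at -2.48 in JA/cytokinin against JA. In cytokinin the members other than PORA were at 3.4% (PORB) to 104% (HEMA1) of control, and in JA/cytokinin at 1.19% (PORB) to 96.1% (HEMA1), apart from GNC, which was listed at 0. The summed shoot list was at 5.19% and 12.2% in these libraries. WUS gave 0.493 of its 0.931 FPKM in cytokinin, and BASL gave 1.29 of its 2.19 FPKM in JA/cytokinin. Of the 14 shoot markers 8 and 7 were listed at 0, from a median of 0.589 FPKM in control.

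**Figure D4:**
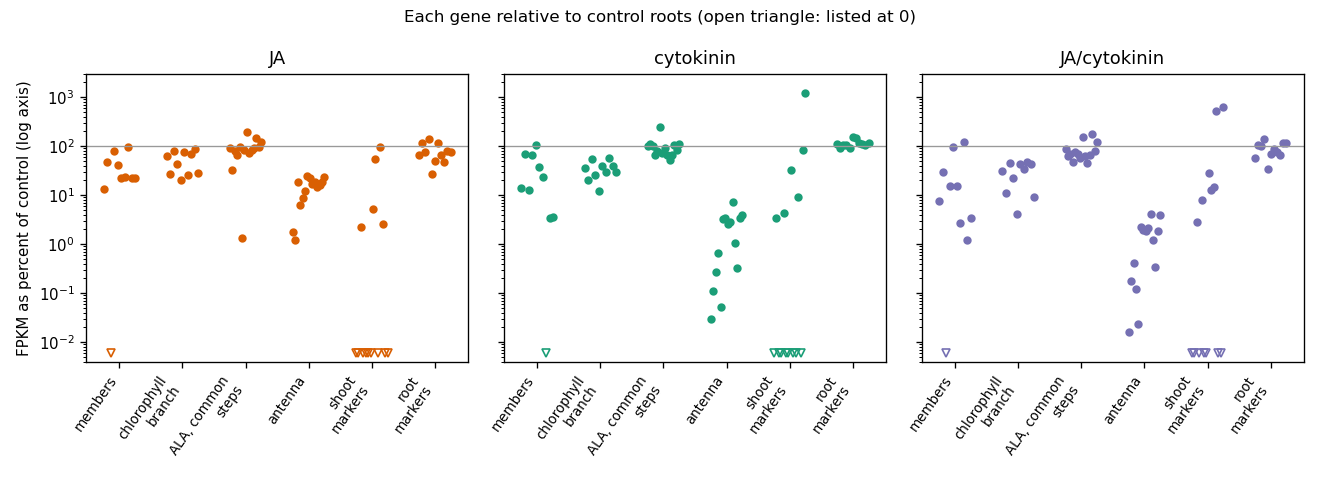
FPKM of each gene as a percentage of its control level, on a log axis, for 6 gene lists in the JA, cytokinin and JA/cytokinin libraries, with open triangles for genes listed at 0. Most root markers and genes of the common steps lie within 2-fold of control, with CASP1 at 26.9% in JA and 34.5% in JA/cytokinin. Antenna genes lie far below. Listed at 0 are 7 to 9 of the 14 shoot markers, whose median in control was 0.589 FPKM.

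The regions before the gene starts were read to compare PORB with the 2 genes that behaved unlike it, PORA near the floor and HEMA1 near its control level in cytokinin. Shown are bases upstream of the annotated start, 5′ to 3′ on the strand of the gene, from the RefSeq genome TAIR10.1. PORB was taken at chr4:13725360-13725545 (186 bases, since the bases further out lie in the neighbouring gene AT4G27435), PORA at chr5:21992815-21993064 and HEMA1 at chr1:21626403-21626652. Capitals mark matches, on either strand, to any of 4 motifs. One is the G-box, the palindrome CACGTG bound by several families of plant transcription factors. Another is CCAATC, which has been reported in regions upstream of GLK target genes. A further motif, bound by GATA factors, is GATAAG and is matched in PORA on the opposite strand. The last is the evening element of clock-regulated genes, spelled AAAATATCT here.
PORB: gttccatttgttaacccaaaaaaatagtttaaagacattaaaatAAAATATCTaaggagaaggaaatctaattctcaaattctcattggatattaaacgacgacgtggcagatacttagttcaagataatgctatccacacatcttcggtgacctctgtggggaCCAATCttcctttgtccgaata
PORA: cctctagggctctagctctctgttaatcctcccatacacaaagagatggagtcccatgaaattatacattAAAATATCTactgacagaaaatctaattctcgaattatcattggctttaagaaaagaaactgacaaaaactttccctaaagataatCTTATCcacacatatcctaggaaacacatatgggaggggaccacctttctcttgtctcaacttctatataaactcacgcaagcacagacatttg
HEMA1: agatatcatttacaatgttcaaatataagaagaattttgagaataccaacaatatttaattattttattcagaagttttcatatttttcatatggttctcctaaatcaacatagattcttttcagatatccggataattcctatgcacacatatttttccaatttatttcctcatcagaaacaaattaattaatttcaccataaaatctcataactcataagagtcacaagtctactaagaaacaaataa

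PORA and PORB both held AAAATATCT, 180 and 142 bases before the start, although their levels differed widely. This motif was in 2.36% of 27443 upstream regions of 250 bases. CCAATC, present in 10.2% of regions, was in 2 of the 10 members, GUN4 at 13 bases before the start and PORB at 22 and 219 bases. The PORB match at 219 bases is not among the bases shown and lies in the neighbouring gene AT4G27435. GATAAG, present in 12.3%, was in GLK1 and PORA. CACGTG, present in 6.49%, was in none of the members. HEMA1 had none of the 4 motifs. A match is only these letters in this window, and the windows of GUN4 and PORC lie within neighbouring genes.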

How the data were processed

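The authors made polyA-selected, paired-end libraries and deposited 1 FPKM value per gene and library, computed with Cufflinks. The submitters' processing notes name Bowtie and TAIR10; versions, options and strand use are not given in the sources used here. The authors also deposited the read count sequenced per library. Where a gene has more than one transcript, the deposited FPKM seems to add them up. Ratios were taken of FPKM as deposited, without a pseudocount, over the 22291 genes with a value above 0 in each of the 4 libraries, and genes at least 2-fold apart were counted. With 1 library per condition no test was run.

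Fragments were estimated from the steps between low FPKM values of 17957 genes with 1 transcript in TAIR10.1, at a fragment length of 160 bases. Of the values up to 5 fragments, 58.6% to 60.4% lay within 0.1 fragment of a whole number, so the estimates are approximate. Exact Poisson intervals, and exact binomial ones for ratios, at the 95% level cover counting error only. 3 fragments were taken as the floor. The method was tested on simulated data.

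The members and lists were chosen with earlier results of these data known. All 10 members are named. From the other lists come the 2 highest and 2 lowest ratios of cytokinin to control and of JA/cytokinin to JA. Only genes of at least 1 FPKM were ranked. Names outside this rule (HEMA2, GATA15, the YABBY sum, WUS, STM, SPCH, MUTE, FAMA, TMM, EPF1, EPF2, EPFL9, GL2, PAO, PIF4 and SIG4) were added after their values were seen. Alternatives were pseudocounts of 0.1 and 1 FPKM, 2 rescalings, thresholds of 1.5-fold and 3-fold, a filter on mean FPKM of at least 1 and, chosen after seeing the data, members of at least 5 FPKM only. Tools were Biopython 1.88, pandas 2.3.3, numpy 2.4.6, scipy 1.17.1, matplotlib 3.10.9 and Python 3.11.15. Other experiments of the study were not analysed here.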

Additional observations from a re-analysis of the deposited data

How the results depend on the processing

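With 1 FPKM added to both values, which damps low genes, the median member log2 ratio moved to -1.38 in JA, -1.16 in cytokinin, -1.98 in JA/cytokinin, -0.40 in JA/cytokinin against cytokinin and -0.51 in JA/cytokinin against JA. The members past 2-fold in JA/cytokinin against cytokinin numbered 2 rather than 5 with that pseudocount, and 2 at a 3-fold threshold. The counts of the other 4 comparisons stayed within 1.5 times under every alternative tried. All counts did so under a pseudocount of 0.1 FPKM, both rescalings and, chosen after seeing the data, the restriction to members of at least 5 FPKM. Under these settings each median moved by less than the median half-width of the members' counting intervals. With 0.1 FPKM the median of JA/cytokinin against JA went from -1.633 to -1.065. Of the 40 single-gene ratios, 25 moved beyond their counting interval with the 1 FPKM pseudocount and 2 with rescaling to equal totals, and no direction reversed past 2-fold. No paired analysis was possible because there was 1 library per condition, and leaving out a replicate was not possible either. Depth limits GNC, CGA1, GLK1 and PORA, whose values in treated roots rest on few fragments. It also limits GUN4 and PORB in JA/cytokinin, with an estimated 10.7 and 21.8 fragments. PORC had an estimated 24.4 in cytokinin and 26.1 in JA/cytokinin.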

Other observations

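Of the genes of the chlorophyll cycle and of chlorophyll breakdown, all 10 were above their control level in JA, with 3 at least 2-fold higher. All 10 were below control in cytokinin, with 4 at least 2-fold lower. Beside these stand 9.32% of all genes 2-fold higher in JA and 9.77% 2-fold lower in cytokinin. Some were close to control, such as NOL in JA (log2 0.12) and CLH2 in cytokinin (-0.13). Over all genes the median log2 ratio was -0.02 in JA and 0.05 in cytokinin. The share of all genes merely above or below control was not computed. The median log2 ratio of the chlorophyll branch was -0.97 in JA and -1.63 in cytokinin. CLH1, a chlorophyllase known as a JA-induced gene, was at 0.651 FPKM in control, 105.8 in JA, 0.0983 in cytokinin and 36.1 in JA/cytokinin. PAO, the oxygenase that opens the chlorophyll ring, was at 4.17, 10.5, 2.18 and 6.42 FPKM in the same order, and was named after its values were seen. HCAR, RCCR, PPH and CLH2 were at log2 ratios of -1.56, -1.18, -0.55 and -0.13 in cytokinin against control, and NYE2 was at 0.26 in JA/cytokinin against JA.

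Among 22 light and greening regulators, 20 were above 0 in all libraries, and 1 was 2-fold lower in JA, 4 in cytokinin and 5 in JA/cytokinin, beside 11.3%, 9.77% and 11.6% of all genes. PIF5, a phytochrome-interacting factor, was at 5.997 FPKM in control, 1.34 in JA, 0.237 in cytokinin and 0.113 in JA/cytokinin. PIF4 and SIG4, at 3.08 and 4.65 FPKM in control, were listed at 0 in cytokinin, and were named after their values were seen. SIG6, a plastid sigma factor, was at 7.84 FPKM in control and 2.43 in cytokinin. The auxin response factor ARF19 had the highest ratio of cytokinin to control in the list (log2 0.53), followed by HAM3 (0.46). Between JA/cytokinin and JA, PIF1 was at -1.40 and HAM1 at 0.47.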
